A study of Mus musculus with 2 samples.

Results

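Haemoglobin and erythroid genes were followed on 2 one-colour Agilent arrays of mouse dorsal root ganglion (DRG) neurons, through 9 gene names: Hba-a1, Hba-a2, Hbb-b1, Hbb-b2, Hbb-bt, Alas2, Slc4a1, Hemgn and Epb42. Every non-control probe that carries one of these names in the scanner files was taken, which gave 10 of 56601 probes and covered 8 of the 9 names, out of 37074 gene names in the files. One array held RNA of a Dock8-/- sample and 1 array held RNA of a Dock8+/- sample. Both came from C57BL/6 mice that carry the AND T cell receptor transgene, (tcr)AND Tg in the labels, so this transgene is shared by the Dock8+/- sample. The labels describe the Dock8-/- sample as having a high IL-31 level and the Dock8+/- sample a low one, where IL-31 is a cytokine that causes itch. Age, sex, the number of animals behind each RNA sample and the deleted part of Dock8 are not given in the sources used here. With 1 array per genotype there is no replicate and no test between genotypes, and every difference below is a difference between 2 arrays.

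Haemoglobin, the oxygen carrier of red blood cells, is a tetramer of alpha and beta globin chains, each holding a haem group. Red cell precursors make its messages in great amounts, and young red cells (reticulocytes) keep them after the nucleus is lost. A ganglion has a dense blood supply, and rodent neurons have also been reported to hold globin messages. In a bulk RNA sample, fewer cells of a type and less RNA per cell cannot be told apart.

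The Dock8-/- array was dimmer as a whole. The 75th percentile of processed intensity over the non-control probes, in arbitrary units, was 145.6 in Dock8-/- and 303.8 in Dock8+/-. Of these probes 50.7% in Dock8-/- and 56.9% in Dock8+/- were well above background, a setting of the scanner software that is called "read" here. Each array was therefore divided by its own 75th percentile, and differences are log2 of Dock8-/- over Dock8+/- after that step, so a negative value means a lower signal in Dock8-/-. Without the step every difference is lower by 1.06. Dock8 itself was near background: 1 of its 5 probes was read in Dock8+/-, with an intensity of 6.87 in Dock8-/- and 20.5 in Dock8+/-, and the other 4 were read on neither, so Dock8 gave little check of the labels.

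The 60-base probes decide which messages are counted, so their sequences are shown for each gene: whole for those inside the coding part of the message, and otherwise as 30 bases. Positions are those in the files, on mouse build mm9, and no exon annotation of mm9 was used. The alpha globin probes start at base 161 and base 499 of the Hba-a1 message and at base 497 of the Hba-a2 message. They lie at chr11:32183955-32184014, chr11:32184427-32184486 and chr11:32197245-32197304 on the plus strand. Capitals mark the polyadenylation signal AATAAA.
Hba-a1, base 161: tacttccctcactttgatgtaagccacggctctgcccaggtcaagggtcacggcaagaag
Hba-a1, base 499: tcttggtctttgAATAAAgcctgagtagga
Hba-a2, base 497: tcttggtctttgAATAAAgcctgagtagga
The files list the transcripts of both Hba-a1 and Hba-a2 for each of these 3 probes, and the probes at base 499 and base 497 share a run of 59 of 60 bases. The genes Hba-a1 and Hba-a2 can thus not be read apart, and their probes measured alpha globin message from both.

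The beta globin probes are those of Hbb-b1 (chr7:110976379-110976438, minus strand), Hbb-b2 (no position in the files) and Hbb-bt (chr7:110961105-110961164, minus strand). Capitals mark the start codon in the Hbb-b1 probe.
Hbb-b1, base 5: aaccccagaaacagacatcATGgtgcacct
Hbb-b2, base 215: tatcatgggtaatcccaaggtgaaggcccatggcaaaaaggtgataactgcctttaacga
Hbb-bt, base 503: ttttctgctattgtctatgcacaaaggtta
C57BL/6 mice carry the adult beta globin genes Hbb-bs and Hbb-bt, while Hbb-b1 and Hbb-b2 belong to another haplotype of laboratory mice. The files list an Hbb-bs transcript beside that of Hbb-b1 for the Hbb-b1 probe. That probe shares a run of 46 bases with the first 50 bases of Hbb-bs, against 12 bases with those of Hbb-bt. The Hbb-b2 probe is listed with the Hbb-b2 and Hbb-b1 transcripts, and the Hbb-bt probe with that of Hbb-bt alone. No gene of the C57BL/6 haplotype is thus listed for the Hbb-b2 probe, and which message it read here was not tested. Hbb-bs had no probe assigned to it by name.

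Alpha globin was lower in Dock8-/- with each of its 3 probes, and each probe was printed in 10 spots. The Hba-a1 probe at base 161 had a lowest spot of 826.2, a median of 909.2 and a highest spot of 955.1 in Dock8-/-, against 7143, 7578 and 7759 in Dock8+/-. The Hba-a1 probe at base 499 had 7019, 7258 and 7334 in Dock8-/-, against 32459, 33329 and 34022 in Dock8+/-. The Hba-a2 probe had 6779, 7033 and 7301 in Dock8-/-, against 31311, 32687 and 33582 in Dock8+/-. These are intensities before scaling, and the Dock8-/- array was dimmer as a whole, so the gaps between the arrays include that dimness.

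After scaling, the difference was -2.0 for the Hba-a1 probe at base 161 (4.0-fold lower in Dock8-/-) and -1.15 for the Hba-a1 probe at base 499 (2.21-fold lower). The Hba-a2 probe also gave -1.15. Without scaling the same probes were 8.35-fold, 4.62-fold and 4.62-fold lower in Dock8-/-. The SD between the 10 spots was 0.06 on the log2 scale in Dock8-/- and 0.04 in Dock8+/- for the probe at base 161. It was 0.02 on each array for the probe at base 499. These SDs cover the printing and reading of spots within an array and not the spread between animals. The probes at base 161 and base 499 of the same message differed from each other by 0.85 in their log2 difference, or 1.81-fold, which is larger than these spot SDs. The cause of that gap was not tested.

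Beta globin was lower in Dock8-/- with its 3 probes too, each in 1 spot, for which the error given is that of the scanner software's error model. The Hbb-b1 probe had an intensity of 52.8 ± 6.79 in Dock8-/- and 384.9 ± 38.8 in Dock8+/-. The Hbb-b2 probe had 232.2 ± 23.5 in Dock8-/- and 1295 ± 129.6 in Dock8+/-. The Hbb-bt probe had 1099 ± 110.0 in Dock8-/- and 7004 ± 700.4 in Dock8+/-. These intensities are before scaling too, and without scaling 48.6% of all probes read on both arrays were at least 2-fold lower in Dock8-/-. After scaling, the differences were -1.80 for Hbb-b1 (3.49-fold lower in Dock8-/-), -1.42 for Hbb-b2 (2.67-fold) and -1.61 for Hbb-bt (3.05-fold). The Hbb-b1 value depended on the background correction, and was -1.08 under the normexp method with an offset of 50. Alpha and beta globin thus moved in 1 direction, with differences of -2.0 to -1.15 over the 6 globin probes and a median of -1.51, or 2.86-fold lower in Dock8-/-.

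**Figure D1:**
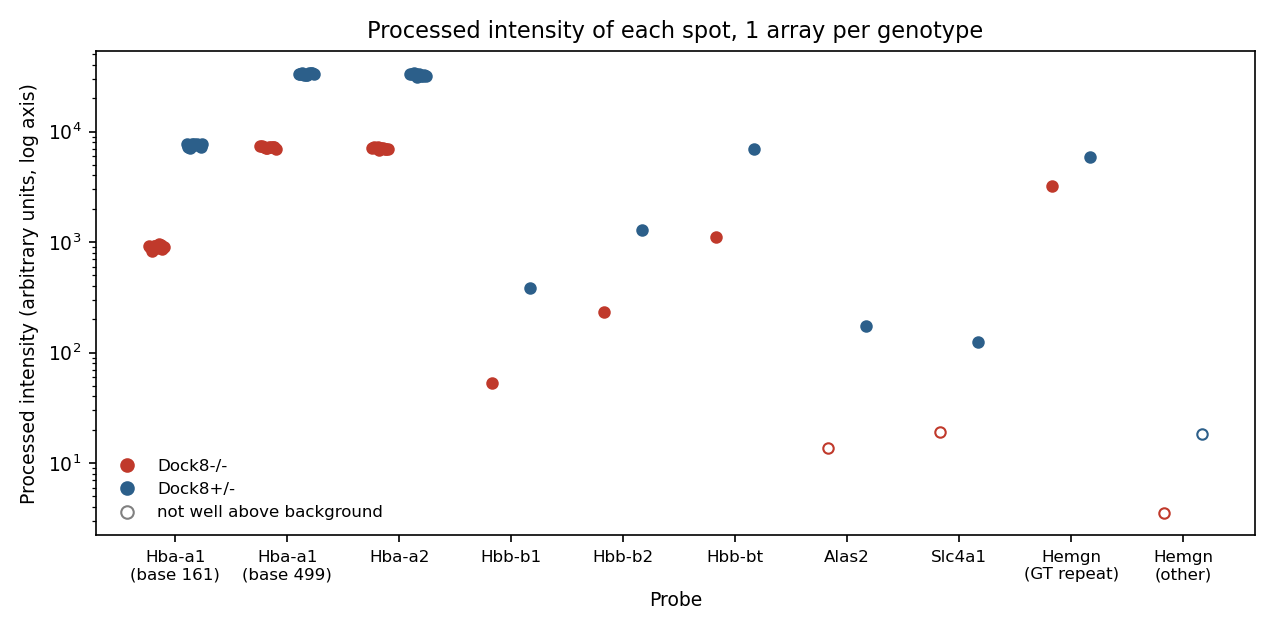
Processed intensity of each spot (log axis, arbitrary units) for the 10 probes, with Dock8-/- in red to the left and Dock8+/- in blue to the right of each tick, before scaling. Open circles are spots not well above background. Every globin probe was dimmer in Dock8-/-, and the probes printed in 10 spots show how narrow the spread within an array was.

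The haem enzyme and the membrane protein fell below the reading limit in Dock8-/-. Alas2 is the erythroid form of 5-aminolevulinate synthase, the first enzyme of haem synthesis, and Slc4a1 encodes band 3, the anion exchanger that anchors the red cell membrane to its skeleton. Their probes lie at chrX:147004993-147005052 and, on the minus strand, at chr11:102210256-102210315.
Alas2, base 1806: tttgggaacatgggaccccaatatgttacc
Slc4a1, base 4368: cccacaaggtctaagaaaagcgtttgccat
Alas2 had 13.6 ± 4.44 in Dock8-/-, not well above background, and 172.0 ± 17.8 in Dock8+/-. Slc4a1 had 19.1 ± 4.67 in Dock8-/-, also not well above background, and 124.2 ± 13.2 in Dock8+/-. For such a probe only a bound exists, set by the higher of its own dim signal and the lowest signal read anywhere on the dim array, which was 16.1 in Dock8-/-. Alas2 was at least 5.11-fold lower and Slc4a1 at least 3.11-fold lower in Dock8-/- after scaling. Among all 4467 probes read in Dock8+/- alone, 15.7% were lower by at least 2-fold by the same bound.

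The probes of Hemgn gave unlike readings. Hemgn encodes hemogen, a nuclear protein of blood cell precursors, and had 2 probes in the same message, at chr4:46407248-46407307 and chr4:46407366-46407425 on the minus strand. Capitals mark the GT repeat.
Hemgn, base 1863: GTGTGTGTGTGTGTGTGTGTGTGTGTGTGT
Hemgn, base 1745: catatctcttgtggtttcactgaaacactg
The probe at base 1863 had 3213 ± 321.3 in Dock8-/- and 5917 ± 591.8 in Dock8+/-, a difference of 0.18 after scaling. Its sign turned under other settings: it was -0.05 under median scaling, -0.05 under normexp, -0.88 without scaling and -1.66 under spike-in scaling. The probe at base 1745 had 3.5 in Dock8-/- and 18.2 in Dock8+/- and was read on neither. The 2 probes of 1 message thus gave opposite accounts of whether Hemgn was detected.

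The bright Hemgn probe holds 18 GT units, and it was set beside all 71 probes on the array with at least 8 such units. All 71 were read on both arrays, whereas 49.0% of all probes were. Their median intensity was 2410 in Dock8-/- and 4229 in Dock8+/-, and their differences lay between -0.12 and 0.37 with a median of 0.19. The Hemgn probe's 0.18 lies within that range. These probes name many different genes and share the repeat, so the value at base 1863 is given for the probe and not as a level of Hemgn. This comparison was chosen after the values were seen.

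**Figure D2:**
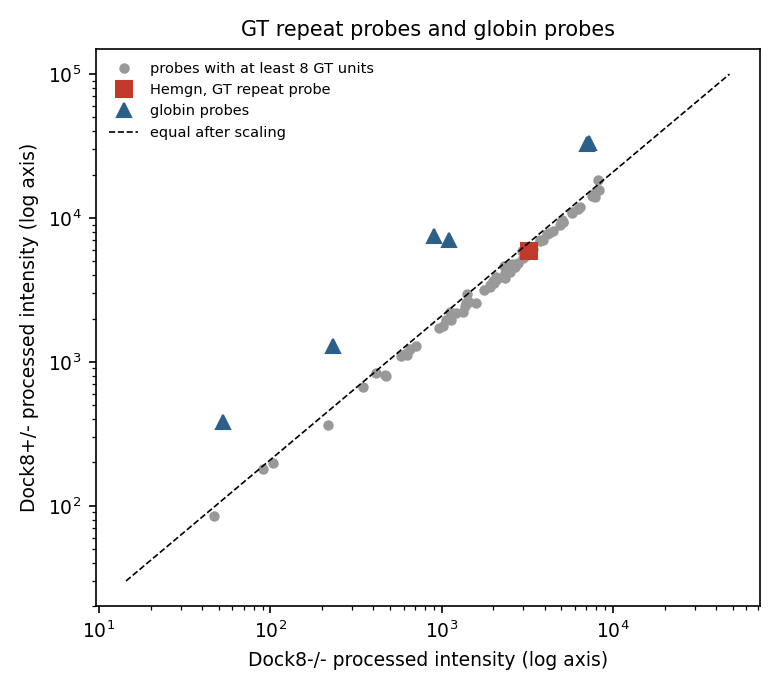
Processed intensity in Dock8-/- (x, log axis) against the Dock8+/- array (y, log axis), in arbitrary units, for the 71 probes with at least 8 GT units (grey), the Hemgn probe among them (red square) and the 6 globin probes (blue triangles). The repeat probes follow the dashed line of equal scaled signal, and the globin probes lie above it, towards Dock8+/-.

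Epb42, the band 4.2 protein of the red cell membrane, had no probe under that name. The files carry 2 probes under the older symbol Epb4.2, which the RefSeq table gives as a synonym, at chr2:120844440-120844499 and chr2:120849386-120849445. They had 3.67 and 3.81 in Dock8-/- and 3.92 and 4.05 in Dock8+/-, and none was read on either array. Epb42 was thus not detectable in these samples at this signal, and no fold is given.

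Of the 10 probes, 7 were read on both arrays, 2 in Dock8+/- alone, 1 on neither and 0 in Dock8-/- alone. Among the 7, 6 were at least 2-fold lower in Dock8-/- and 0 at least 2-fold higher, beside 7.06% of all 27734 probes read on both arrays that were at least 2-fold lower and 11.8% that were at least 2-fold higher. The median of the 7 was -1.42, against 0.09 over all probes. The 6 are not independent: they read products of 2 chains, and the 3 alpha probes read the same message. The background share depended on the scaling: without it 48.6% of all probes were at least 2-fold lower in Dock8-/-. The median of the globin probes minus the median of all probes was -2.01 to -1.48 on the log2 scale over the 12 settings run, and each globin probe was at least 2-fold lower in each of them.

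**Figure D3:**
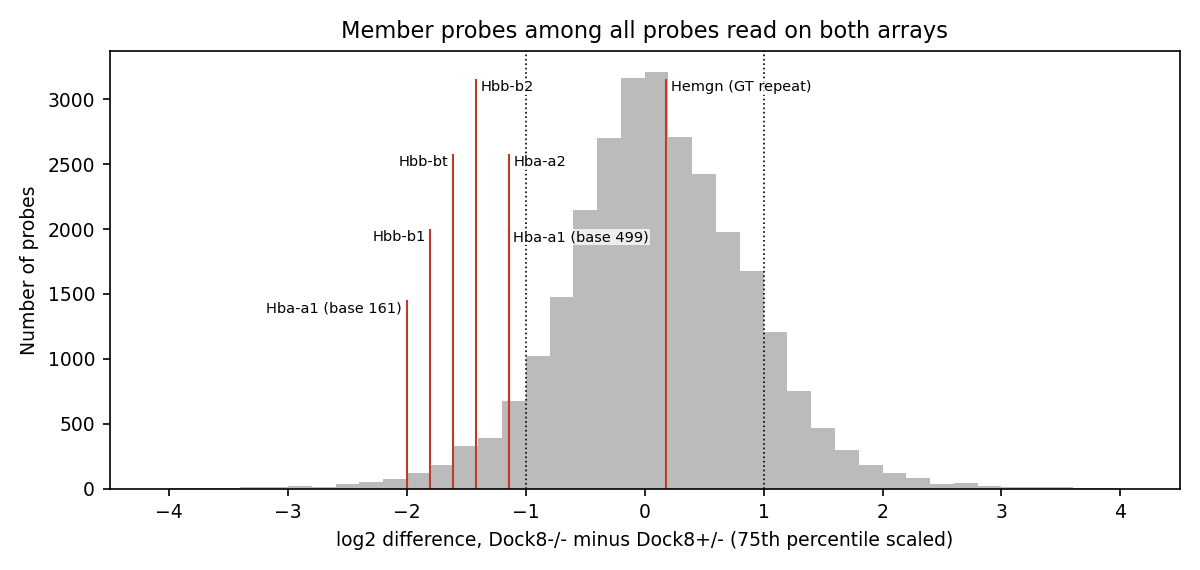
Number of probes by log2 difference, Dock8-/- minus Dock8+/-, after scaling, for all 27734 probes read on both arrays (grey). Red lines mark the 7 erythroid probes among them at heights that carry no value, and dotted lines a 2-fold difference. The globin probes lie at -2.0 to -1.15, to the left of the lower dotted line, and the Hemgn repeat probe at 0.18 near the centre.

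**Figure D4:**
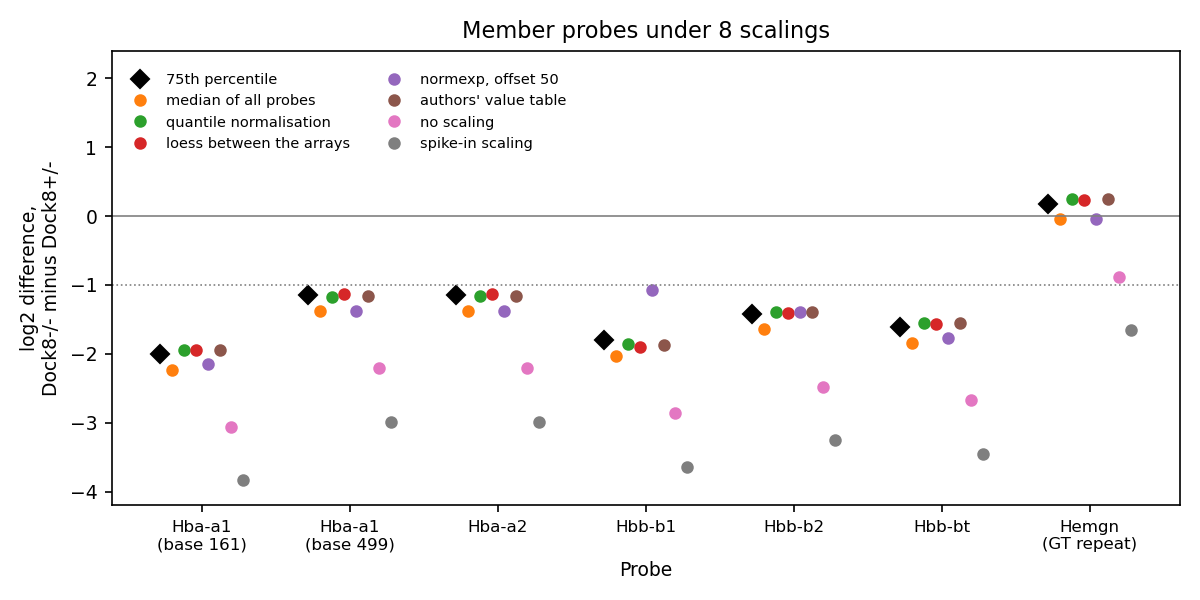
Log2 difference, Dock8-/- minus Dock8+/-, of the 7 erythroid probes read on both arrays under 8 ways of scaling or background correction, with the 75th percentile scaling as black diamonds. The 6 globin probes stay below the dotted line of a 2-fold lower signal, and the Hemgn repeat probe lies on either side of 0.

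Spot error for the range of signals above was taken from the 299 probes of the array printed in 10 spots and read on each array. The root mean square SD between spots was 0.05 in Dock8-/- and 0.04 in Dock8+/- on the log2 scale, which gives an SD of 0.07 for the difference of single spots. Between 100 and 1000 intensity units that SD was 0.09, and under 100 it was 0.48, from 1 probe. The Hbb-b1 probe, at 52.8 in Dock8-/-, lies in that dim range, and the other globin probes lie above it. All 6 globin differences were larger than the SD of their range, but this error holds neither the labelling nor the animals.

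The promoters of the globin genes show what the alpha and beta genes share around their starts. Sequences and gene starts are from RefSeq on build GRCm38.p6, which held a window of 300 bases, 250 before the gene start and 50 from it on, for 6 of the 9 names. Shown are 200 bases before the start of Hba-a1 (chr11:32283472-32283671, plus strand), Hbb-bt (chr7:103813924-103814123, minus strand) and Alas2 (chrX:150547217-150547416, plus strand). Capitals mark a GATAA core, a CCAAT box or a TATAA box on either strand.
Hba-a1: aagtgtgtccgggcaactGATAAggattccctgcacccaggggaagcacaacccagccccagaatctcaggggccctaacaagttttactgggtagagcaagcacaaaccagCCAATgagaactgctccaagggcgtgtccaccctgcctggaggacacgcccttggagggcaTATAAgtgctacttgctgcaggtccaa
Hbb-bt: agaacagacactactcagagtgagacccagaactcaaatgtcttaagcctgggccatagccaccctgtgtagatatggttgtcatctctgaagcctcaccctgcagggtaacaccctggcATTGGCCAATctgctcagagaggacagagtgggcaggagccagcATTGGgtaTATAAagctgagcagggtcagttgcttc
Alas2: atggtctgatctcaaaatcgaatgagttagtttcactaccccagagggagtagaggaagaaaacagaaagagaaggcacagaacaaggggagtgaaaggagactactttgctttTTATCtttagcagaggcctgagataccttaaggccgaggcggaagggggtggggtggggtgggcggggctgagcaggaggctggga
The windows of Hba-a1 and Hba-a2 share a run of 297 bases, so this sequence cannot tell the alpha copies apart either. Counted from the gene start, CCAAT began at base -88 in Hba-a1 and at base -75 in Hbb-bt. TATAA began at base -27 in Hba-a1 and at base -28 in Hbb-bt. The motifs below were searched on both strands of the 6 windows and of all 32851 windows in the table. AGATAA, the core bound by GATA factors, was in 3 of the 6 (Alas2, Epb42 and, after the gene start, Hemgn) and in 11.2% of all windows. CACACCC, a box bound by KLF1, was in this full form in 0 of the 6 and in 7.95% of all. CCAAT was in 3 of the 6 (Hba-a1, Hba-a2, Hbb-bt) and in 37.4% of all, and TATAAA in 4 of the 6 and in 13.6% of all. Shorter forms of the first and last motif, which overlap them, were added after these matches were seen. None was added for CACACCC. Its last bases, caccc, stand in the printed Hba-a1 and Hbb-bt sequences and were not counted, so the 0 holds for the full form only. GATAA was in 6 of the 6 and in 25.4% of all windows. TATAA was in 6 of the 6 and in 24.9% of all windows. The matches describe the letters in these windows and say nothing about binding.

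Most other genes of the red cell and of haem lay within 2-fold between the arrays after scaling. In 6 lists of related genes, 67 genes were read on both arrays by their brightest probe; a difference of at least 2-fold was seen in 5 towards lower and in 1 towards higher signal in Dock8-/-. Over all 18649 genes read on both arrays, 7.03% lay at least 2-fold lower in Dock8-/-, 9.08% lay at least 2-fold higher, and the median was 0.03. The count of 5 in 67 is near that background. Under spike-in scaling or without scaling it was 63 and 44, since most genes of the array were then lower.

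Among the other globin genes, Cygb, the cytoglobin of fibroblast-like cells, was the one read on both arrays, with 1639 in Dock8-/- and 8847 in Dock8+/- (-1.37, 2.59-fold lower in Dock8-/-). Mb, the myoglobin of muscle, had 13.4 in Dock8-/-, not well above background, and 147.5 in Dock8+/-, at least 4.38-fold lower. Ngb, the neuroglobin of nerve cells, had 13.2 in Dock8-/-, not well above background, and 86.6 in Dock8+/-, at least 2.57-fold lower. The embryonic globins Hbb-bh1, Hbb-bh2, Hbb-y and Hba-x were read on neither array, nor was the theta globin Hbq1a. Its copy Hbq1b was read in Dock8+/- alone, with 4.37 in Dock8-/- and 22.7 in Dock8+/-, too near background for a fold.

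Of 21 genes of the red cell membrane and its skeleton, 11 were read on both arrays, 5 higher and 6 lower in Dock8-/-, with a median of -0.11. Of these, 3 were at least 2-fold lower. Gypc, glycophorin C, had 250.6 in Dock8-/- and 1948 in Dock8+/- (-1.90). Sptb, the beta spectrin of red cells, had 58.5 in Dock8-/- and 409.9 in Dock8+/- (-1.75). Dmtn, the actin-bundling protein dematin, had 362.3 in Dock8-/- and 1631 in Dock8+/- (-1.11), while its other probe gave 0.26. Ermap, an erythroid membrane protein, was higher by 0.81. In this list 8 genes were read on neither array.

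All 17 genes of haem synthesis and iron supply were read on both arrays, 3 higher and 14 lower in Dock8-/-, with a median of -0.32. By the brightest probe 0 were at least 2-fold lower, and 1 was at least 2-fold higher: Tfrc, the transferrin receptor, with 374.6 in Dock8-/- and 293.4 in Dock8+/- (1.41), while its other probe gave 0.22. Iba57, an iron-sulfur cluster protein of mitochondria, gave -0.98, Slc25a39, a mitochondrial carrier, gave -0.79 with -2.36 for its other probe, and Cpox, coproporphyrinogen oxidase, gave 0.77 with 1.92 for its other probe. Counted over all read probes instead of the brightest, 1 gene of the list had a probe at least 2-fold lower and 2 had a probe at least 2-fold higher in Dock8-/-.

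Of 13 erythroid regulators, 9 were read on both arrays and 0 were 2-fold apart by their brightest probe. Their median was 0.18, but it was below 0 without scaling and under median and spike-in scaling. Gata1, the master transcription factor of red cell precursors, had 4.06 in Dock8-/- and 17.6 in Dock8+/-, and Klf1, the factor that switches on adult beta globin, had 6.71 in Dock8-/- and 8.36 in Dock8+/-. Both were read on neither array. Tal1, a blood stem cell factor, gave 0.18, Epor, the erythropoietin receptor, gave 0.40, Gata2 gave 0.92, Bcl11a, a repressor of embryonic globins, gave 0.76 with another probe at 1.39, and the bridging protein Ldb1 gave -0.42 with 0.49 for its other probe.

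All 20 other genes of late red cells were read on both arrays, 12 higher and 8 lower in Dock8-/-, with a median of 0.02 that was below 0 without scaling and under median scaling, spike-in scaling and normexp. Ahsp, the chaperone of free alpha globin, had 177.1 in Dock8-/- and 367.6 in Dock8+/-, a difference of 0.01. Isg20, an exonuclease, was 2.41-fold lower in Dock8-/- (-1.27), Ube2h, a ubiquitin-conjugating enzyme, gave 0.98 with -0.25 for its other probe, Cat, catalase, gave -0.50 and Car1, carbonic anhydrase 1, gave 0.39. Genes of haem breakdown and haemoglobin clearance were read in 9 of 10 cases, 1 higher and 8 lower in Dock8-/-, with a median of -0.27 and 0 at least 2-fold apart by their brightest probe. Hmox1, the haem oxygenase, had 389.8 in Dock8-/- and 954.1 in Dock8+/- (-0.23). Slc40a1, the iron exporter ferroportin, gave -0.61, the ferritin light chain Ftl1 gave -0.53 with -1.13 for its other probe, Blvra, biliverdin reductase, gave -0.43, and the ferritin heavy chain Fth1 gave 1.0.

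Markers of other cell types moved between the arrays beside the globins, and their part in the globin differences was not tested. Sums of intensity for the cell types, here and below, are before scaling, so the dimmer Dock8-/- array lowers each of them. The 13 platelet genes summed to 217.7 intensity units in Dock8-/- and 4950 in Dock8+/-. Pf4, a platelet chemokine, held most of that sum, with 100.2 in Dock8-/- and 4580 in Dock8+/- (-4.45, 21.9-fold lower in Dock8-/-), while Itga2b, Gp1ba, Gp5, Gp9 and Clec1b were read on neither array. Of 10 macrophage genes, 9 were read on both arrays and 8 were at least 2-fold lower in Dock8-/-. The 10 genes summed to 5547 in Dock8-/- and 44176 in Dock8+/-, of which Lyz2 held 1848 and 28256. Lyz2 (-2.87) and Adgre1 (-1.92) moved most among those 9. Fcgr1, read in Dock8+/- alone, was at least 4.40-fold lower in Dock8-/-.

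Of 8 fibroblast genes, 6 were at least 2-fold lower in Dock8-/-, led by Col3a1 (-3.21, with another probe at -0.42) and Col1a1 (-2.92). The 8 genes summed to 37826 in Dock8-/- and 256432 in Dock8+/-, of which Dcn (-1.47) held 29379 and 169838. Of 10 skeletal muscle genes, 5 were read on both arrays, with a median of -3.94, and the brightest probes of the other 5 were read in Dock8+/- alone. Their sums were 4394 in Dock8-/- and 26646 in Dock8+/-. Pvalb, which sensory neurons also express, held 4063 of that in Dock8-/- and 15109 in Dock8+/- (-0.83), and the sums of the other 9 genes were 331.0 in Dock8-/- and 11536 in Dock8+/-. Tnnt3 (-4.02) and Myh8 (-3.97) moved most among the 5 read on both arrays. The brightest probe of Myh4, read in Dock8+/- alone, was at least 52.7-fold lower in Dock8-/-, while another Myh4 probe read on both arrays gave 0.72. Not all blood and vessel markers went this way. Endothelial genes had a median of -0.29 over 10 of 12 genes, with Robo4 at 1.01 and Cdh5 at -0.86. Neutrophil genes had a median of 0.46 over 10 of 12, with Ngp at 2.27 and Mpo at 1.02, while Ltf gave -0.70 and Mmp9, read in Dock8+/- alone, was at least 2.15-fold lower in Dock8-/-. B cell genes were read in 2 of 7 cases (Ms4a1 at 2.17 and Cd22 at 0.38) and T and NK cell genes in 3 of 8 (Cd3e at 1.06 and Cd4 at 0.34).

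Genes of the labelled tissue were present on both arrays. All 15 sensory neuron markers were read on each, 8 higher and 7 lower in Dock8-/-, with a median of 0.01, and the 10 genes of Schwann cells and satellite glia had a median of -0.05. By the brightest probe, Pou4f1 (3.09) and Scn9a (1.1) moved most among the neuron markers, though the 3 read probes of Pou4f1 ranged from 0.09 to 3.09, and Fabp7 gave -2.21 among the glial ones. The RNA labelled as DRG neurons therefore also held messages of glia, fibroblasts and muscle on both arrays.

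**Figure D5:**
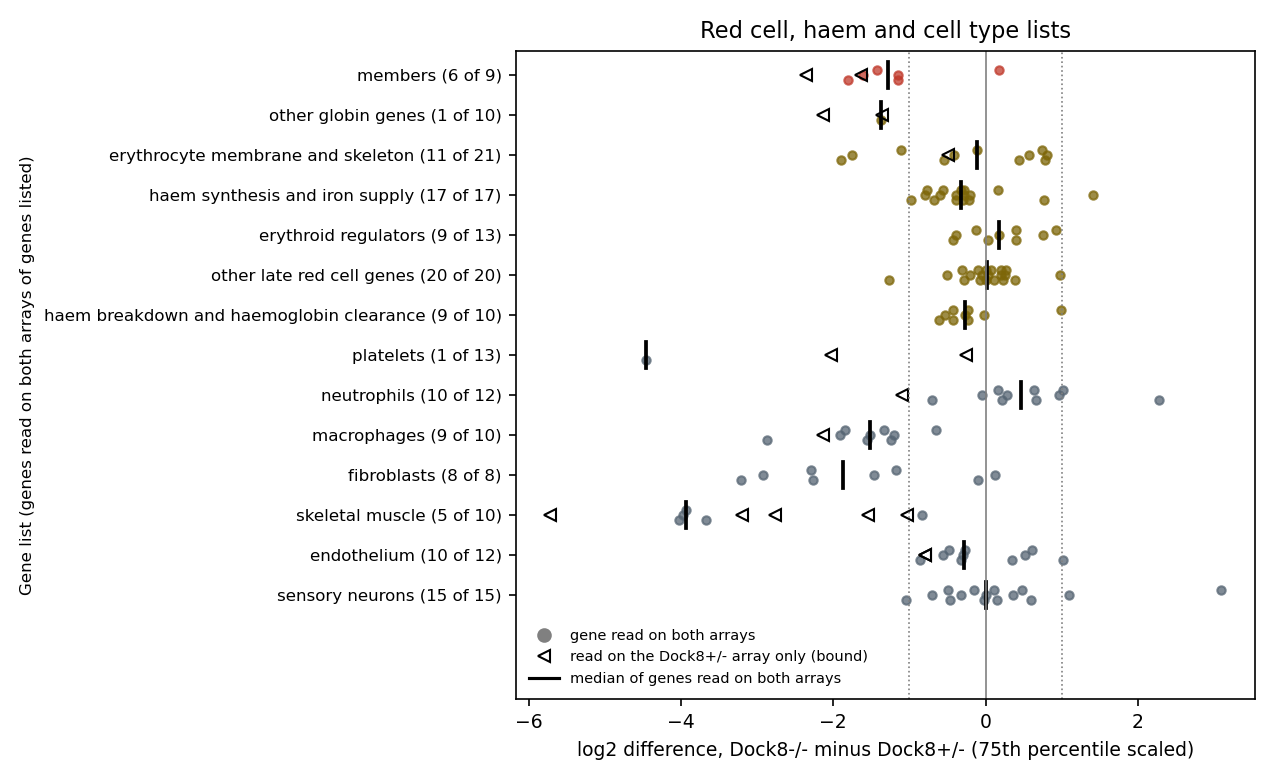
Log2 difference, Dock8-/- minus Dock8+/-, after scaling, for genes read on both arrays (dots, brightest probe) of the red cell, haem and cell type lists. Bars are list medians, and dotted lines mark a 2-fold difference. The lists of B cells, of T and NK cells, and of Schwann cells and satellite glia are not drawn. Open triangles are genes read in Dock8+/- alone that have a bound, drawn at that bound. Gp6, a platelet gene read in Dock8-/- alone (bound 1.38), is not drawn. Globin, macrophage, fibroblast and muscle genes lie mostly to the left, and most related red cell and haem genes between the dotted lines.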

How the data were processed

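Total RNA was labelled with Cy3 and hybridised to 1 array per genotype, per the labels. The authors deposited scanner output with spot intensity on a linear scale. Agilent Feature Extraction was used, in version 10.7.1.1 per the file headers and 9.5.1.1 per the submitters' processing notes. The authors' deposited value table holds intensities whose sorted values were equal (tolerance 0) in 98.9% of places, and served as an alternative.

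Log2 processed intensity was averaged over a probe's spots, without non-uniform spots (1 in Dock8-/- and 3 in Dock8+/-), and each array's 75th percentile over non-control probes was subtracted. No spot was saturated (0 on each array). A probe counted as read when well above background. A gene took its brightest probe. Symbols came from RefSeq GRCm38.p6 by accession for 32990 probes, by symbol for 10224 and by older symbol for 520, and 12867 kept the file's name. A 2-fold difference describes size only. Python 3.11.15, R 4.3.3 and limma 3.58.1 were used, and the calculation was tested on simulated data. Alternatives were other scalings (unscaled, median, the percentile of read probes, quantile, loess with a span of 0.3, spike-in), normexp, the authors' table, other filters, 1.5-fold and 3-fold thresholds and the mean of a gene's probes.

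Named genes were all members, up to 4 read genes with the largest difference from each related list, up to 2 from each cell type list, and Gata1, Klf1, Tal1, Ahsp, Epor and Hmox1. A few genes under this rule are not reported here. Mb, Ngb, Hbq1b, Fcgr1, Dcn, Myh4, Pvalb, Ltf, Mmp9 and the other genes named as read on neither array were chosen after their values were seen. The members and lists were chosen with earlier results of these data known. A planned comparison of globin protein sequences was not run.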

Additional observations from a re-analysis of the deposited data

How the results depend on the processing

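Each globin probe kept its direction and stayed at least 2-fold lower in Dock8-/- in the 12 settings run. These settings are not independent, and those that only change which probes count leave the value of a globin probe unchanged. The median of the erythroid probes, -1.42, was -2.48 without scaling, -1.65 with median scaling, -3.25 with spike-in scaling, -1.61 with the looser detection flag, and -1.51 both with no filter and without GT or AC repeat probes, an alternative added after the data were seen. Over member genes the median of -1.28 was -2.34 without scaling, -3.12 with spike-in scaling, -1.37 under normexp, -1.5 with the mean of probes and -1.42 without repeat probes, and it was -1.51 with median scaling, the looser flag and no filter. The count of 6 probes at least 2-fold lower was 3 at a 3-fold threshold. The 5 related genes at least 2-fold lower became 44 without scaling, 63 with spike-in scaling, 10 with the looser flag, 12 with no filter, 11 at 1.5-fold and 2 at 3-fold. The median of the other globin genes, -1.37 from 1 gene, turned to 0.97 with no filter, which adds probes at background. Relative to the scaling used, the median of all probes shifted by -1.06 without scaling, -0.23 with median scaling and -1.84 with spike-in scaling. All probes at least 2-fold lower and higher numbered 1959 and 3271, against 13467 and 324 without scaling, 23108 and 75 with spike-in scaling, 3140 and 1948 with median scaling, 1131 and 1272 under normexp, 2120 and 2711 with quantile normalisation, 2157 and 2753 in the authors' table, and 2345 and 2384 with loess. No paired analysis was possible because each genotype had 1 array, and no replicate could be left out. Signals near background limit Alas2, Slc4a1, Hemgn and Epb42 to bounds or no value.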
